A study of Medicago truncatula with 6 samples.

Results

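Arbuscular mycorrhizal fungi cannot make long-chain fatty acids of their own and take lipid from the root cells that host them. In legumes a small set of plant genes is known for this supply. FatM, an acyl-ACP thioesterase, frees fatty acids from their carrier protein in the plastid. RAM2, a glycerol-3-phosphate acyltransferase, joins fatty acids to glycerol, and STR and STR2 are ABCG transporters that work as a pair in the plant membrane around the arbuscule, the branched organ that the fungus forms within a root cell. WRI5a, an AP2-type transcription factor related to WRINKLED1 of Arabidopsis, is known as an activator of genes of this route.

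These 5 genes were followed across 6 RNA-seq libraries by their locus identifiers, out of 54762 loci in all: FatM (MTR_1g109110), RAM2 (MTR_1g040500), STR (MTR_8g107450), STR2 (MTR_5g030910) and WRI5a (MTR_8g468920). The libraries came from mycorrhizal roots of Medicago truncatula, 3 from the mutant Mtphr2 and 3 from its wild-type line R108. PHR2 is a MYB-type regulator of the phosphate starvation response, and the study asked which genes differ between these genotypes when roots are mycorrhizal. The labels do not give the Mtphr2 allele, the fungus, the phosphate supply or the age of the plants, and they speak of technical replicates. Each p-value therefore reflects only how far these libraries differ from one another. Values after ± are SD with n = 3 in each genotype, and SE marks a standard error.

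In the deposited annotation the closest Swiss-Prot entries are RAM2, STR and STR2 of Medicago themselves, the Arabidopsis thioesterase FATB for FatM, and the Arabidopsis AP2-like factor At1g16060 for WRI5a. RAM2, STR and STR2 also carry the annotation term for arbuscular mycorrhizal association, which 41 loci of the table hold, while FatM and WRI5a do not. STR and STR2 are 2 of the 7 loci annotated to the periarbuscular membrane. All 5 genes had whole-number counts in every library and were among the 22663 genes with enough counts to be tested. Totals ran from 18199040 to 21477169 counts per library. Casparian strip genes, which mark the root endodermis, summed to 142 to 177 CPM (counts relative to the TMM-scaled library total) in Mtphr2 and 109 to 329 CPM in R108. The highest sum was that of R108 replicate 3, the R108 library lowest in all 5 lipid supply genes, where the CASP2 gene (MTR_4g081880) had 198 CPM, against 88.1 and 71.6 CPM in R108 replicates 1 and 2, and its part in the results was not tested. Leaf-type photosynthesis genes summed to 122 to 207 CPM in Mtphr2 and 127 to 195 CPM in R108.

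All 5 lipid supply genes had lower means in Mtphr2 than in R108, by fitted folds of 4.50 for STR2 to 6.20 for FatM, but libraries of the same genotype differed about as much. Within a genotype the highest and lowest library of a gene differed 3.83-fold to 12.2-fold, against medians of 1.24-fold in Mtphr2 and 1.25-fold in R108 over 16509 tested genes with a mean of at least 5 CPM. None of the 5 passed the test across all genes. In every gene the highest Mtphr2 library was replicate 1 and the lowest was replicate 2, while the highest R108 library was replicate 1 and the lowest was replicate 3. A bulk root library cannot tell fewer arbuscule-containing cells from less RNA per cell.

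**Figure D1:**
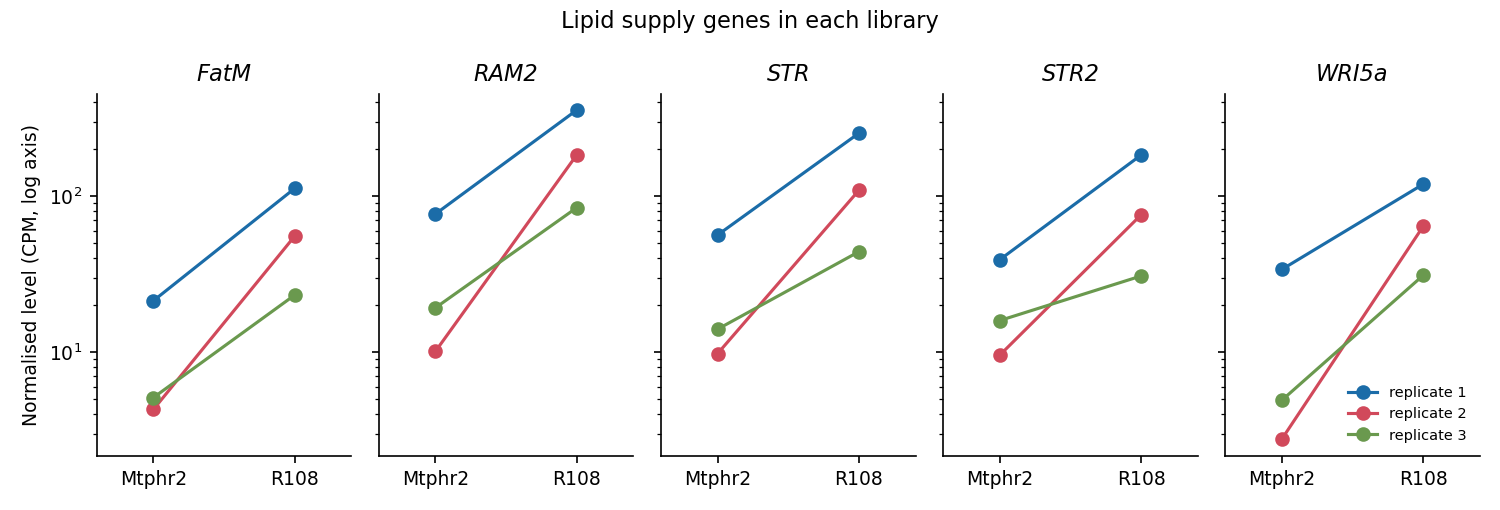
Normalised level (CPM, log axis) of each lipid supply gene in the Mtphr2 libraries, on the left of each panel, and the R108 libraries, on the right. Lines join libraries with the same replicate number in the titles, and all 15 lines are lower at the Mtphr2 end.

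FatM, which acts first in the route, had 21.3, 4.28 and 5.10 CPM in Mtphr2 replicates 1, 2 and 3, against 112, 55.4 and 23.2 CPM in R108 replicates 1, 2 and 3. Every Mtphr2 library lay below every R108 library, although Mtphr2 replicate 1 was close to R108 replicate 3. The means were 10.2 ± 9.62 CPM in Mtphr2 and 63.4 ± 44.7 CPM in R108. The fitted log2 fold change was -2.63 (SE 0.821, 95% interval -4.61 to -0.66), and the quasi-likelihood test of edgeR gave an adjusted p of 0.240 (Benjamini-Hochberg, over all tested genes).

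RAM2 makes the glycerol ester that is thought to be passed on as the fungal lipid source. It had 76.7, 10.1 and 19.2 CPM in Mtphr2 replicates 1 to 3, against 356, 184 and 84.3 CPM in R108 replicates 1 to 3. Here too the genotypes did not overlap, and the narrowest gap was again between Mtphr2 replicate 1 and R108 replicate 3. The means were 35.3 ± 36.1 CPM in Mtphr2 and 208 ± 137 CPM in R108, and the log2 fold change was -2.56 (SE 0.868, adjusted p = 0.260 by edgeR).

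The transporter pair overlapped between genotypes. STR had 56.2, 9.76 and 14.0 CPM in Mtphr2 replicates 1 to 3, against 253, 109 and 44.0 CPM in R108 replicates 1 to 3. STR2 had 39.0, 9.53 and 15.9 CPM in Mtphr2 replicates 1 to 3, against 183, 75.7 and 30.7 CPM in R108 replicates 1 to 3. In both genes Mtphr2 replicate 1 was above R108 replicate 3, and the other Mtphr2 libraries were below all R108 libraries. The log2 fold change was -2.34 for STR (SE 0.874, adjusted p = 0.277 by edgeR) and -2.17 for STR2 (SE 0.770, adjusted p = 0.266 by edgeR).

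WRI5a, the regulator, had the widest spread in Mtphr2. It had 33.8, 2.76 and 4.90 CPM in Mtphr2 replicates 1 to 3, against 119, 63.9 and 31.0 CPM in R108 replicates 1 to 3. The 2.76 CPM of Mtphr2 replicate 2 rested on 60 counts. Mtphr2 replicate 1 was again above R108 replicate 3, and the highest and lowest Mtphr2 libraries differed 12.2-fold, against 3.83-fold among R108 libraries. The log2 fold change was -2.37 (SE 0.998, 95% interval -4.77 to 0.03, adjusted p = 0.310 by edgeR).

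By edgeR's test 0 of the 5 genes passed an adjusted p of 0.05, where 0.0794% of all tested genes did so, 0.0309% lower and 0.0485% higher in Mtphr2. An unadjusted p under 0.05 was reached by 4 of the 5, all but WRI5a, against 8.41% of tested genes that were lower in Mtphr2 at that level. All 5 had a fitted fold of at least 4 on the lower side, which 1.93% of tested genes had, and the median log2 fold change was -2.37, against 0.017 over all tested genes. Complete separation of the genotypes was seen in 2 of the 5, FatM and RAM2, and in 10.6% of tested genes in this direction. DESeq2 called 0 of the 5, where it called 2.96% of tested genes lower, and limma-voom called 0, where it called 0.137% in either direction.

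The libraries carry numbers 1 to 3 in both genotypes, although correlations between libraries do not single these numbers out as pairs. Taken number by number, FatM was 5.21, 12.7 and 4.48-fold lower in Mtphr2, RAM2 was 4.64, 18 and 4.37-fold lower, and WRI5a was 3.50, 22.4 and 6.21-fold lower. STR was 4.49, 11 and 3.13-fold lower and STR2 was 4.69, 7.87 and 1.93-fold lower. Number 2 gave the widest difference in all 5 genes. With the replicate block, a term for this number in edgeR's model, the SEs ran from 0.332 for FatM to 0.558 for WRI5a, and adjusted p ran from 0.0638 for FatM to 0.0990 for STR2, so that 0 of the 5 passed, where 0.221% of tested genes were called lower.

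Leaving out Mtphr2 replicate 1 or R108 replicate 1 moved the fitted folds by more than 1.5 times, and the other omissions moved them less. No omission led to a call. Without Mtphr2 replicate 1, log2 fold changes were -3.75 for FatM, -3.82 for RAM2, -3.51 for STR, -2.92 for STR2 and -4.21 for WRI5a, with adjusted p of 0.103 to 0.178 by edgeR. Without R108 replicate 1 they were -1.94 for FatM, -1.92 for RAM2, -1.52 for STR, -1.31 for STR2 and -1.78 for WRI5a.

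**Figure D2:**
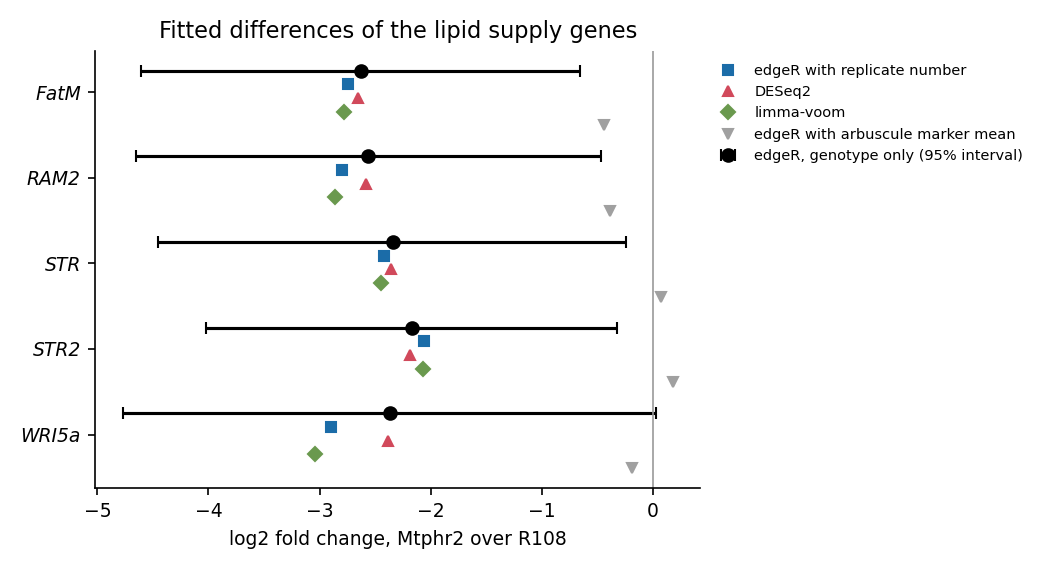
Fitted log2 fold change of each lipid supply gene, Mtphr2 over R108 (horizontal axis), with each row a gene. Black circles with bars are edgeR's estimates and 95% intervals for genotype alone, and the other symbols are estimates with the replicate number, by DESeq2, by limma-voom and with the mean arbuscule marker level as a covariate. The first 4 estimates of each gene lie between -3.04 and -2.06, and those with the marker covariate lie between -0.44 and 0.18.

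Levels of different genes were compared per length, as TPM computed from the deposited counts and locus lengths. RAM2 was the most abundant of the 5 in 6 of 6 libraries, with 33.5 ± 34.1 TPM in Mtphr2 and 188 ± 119 TPM in R108. Within R108 the order was the same in all 3 libraries, with RAM2 highest, then WRI5a, FatM, STR and STR2. The R108 mean of RAM2 lay above that of WRI5a, 84.3 ± 50.2 TPM, by more than the SD of WRI5a but less than its own. The means of the other neighbours in this order differed by less than the SD of either gene. Mtphr2 replicate 1 had WRI5a in the same second place, at 42.0 TPM. Mtphr2 replicates 2 and 3 had WRI5a last, at 3.42 and 6.09 TPM, and STR2 second, at 6 and 10 TPM. Some of these places were close. In Mtphr2 replicate 3 FatM, at 6.56 TPM from 107 counts, was just above WRI5a with 103 counts. In Mtphr2 replicate 2 FatM, at 5.50 TPM from 93 counts, and STR, at 5.35 TPM, were just below STR2.

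The balance of the transporter pair followed the same split among libraries. STR took 59.1%, 50.6% and 46.8% of the summed STR and STR2 counts in Mtphr2 replicates 1, 2 and 3, and 58.0%, 58.9% and 58.9% in R108 replicates 1, 2 and 3. Exact Clopper-Pearson 95% intervals, which cover counting error only, were 56.8 to 61.3%, 45.7 to 55.5% and 42.9 to 50.8% in Mtphr2 replicates 1 to 3, and reached no lower than 56.3% in any R108 library. Mtphr2 replicate 1 thus had the R108 balance, and Mtphr2 replicates 2 and 3 had relatively more STR2. As the genotype averages, the log2 ratio of STR to STR2 was 0.13 ± 0.364 in Mtphr2 and 0.50 ± 0.0308 in R108, which differ by -0.37 (p = 0.4, two-sided exact permutation over libraries, where 0.1 is the smallest p possible). The difference was -0.58 without Mtphr2 replicate 1, the library with the R108 balance, and -0.22 without Mtphr2 replicate 3, so its size rests on which Mtphr2 libraries enter.

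**Figure D3:**
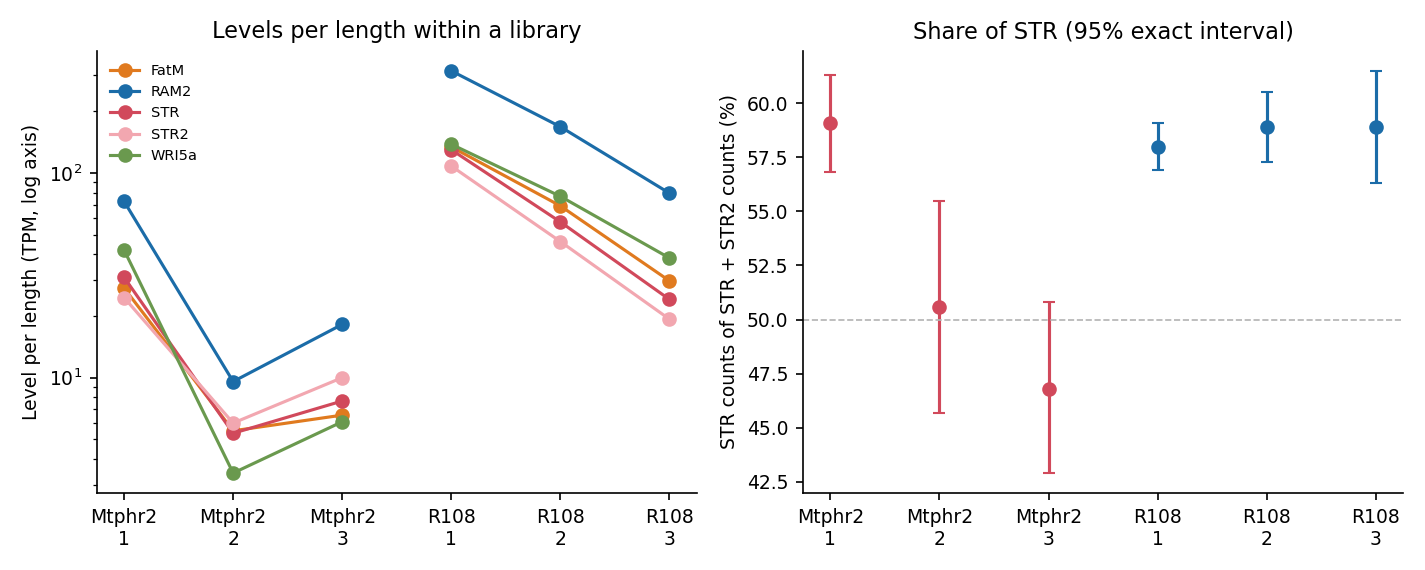
Left, levels per length (TPM, log axis) of the 5 lipid supply genes in each library, with lines that only join the points of a gene within a genotype. Right, the share of STR in the summed STR and STR2 counts of each library, with exact 95% intervals for counting error. Mtphr2 replicates 2 and 3 have WRI5a as the lowest gene, in replicate 3 only just below FatM. Their STR shares are 50.6% and 46.8%, and the other 4 libraries have shares of 58.0% to 59.1%.

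Of the 10 ratios between pairs of the 5 genes, 2 did not overlap between genotypes. With exchangeable genotype labels each ratio has a probability of 0.1 of not overlapping, and the share over all gene pairs was not computed. The log2 ratio of RAM2 to STR was 0.32 ± 0.23 in Mtphr2 and 0.73 ± 0.22 in R108, and that of FatM to STR2 was -1.21 ± 0.38 in Mtphr2 and -0.52 ± 0.17 in R108. Both had p = 0.1 by two-sided exact permutation over libraries, the smallest value that permutation can give, and an adjusted p of 0.5 over the 10 ratios. Exact sign changes within the 3 same-number pairs gave p = 0.25 for both, again the smallest possible. RAM2 had a log2 ratio to WRI5a of 1.66 ± 0.42 in Mtphr2 and 1.52 ± 0.071 in R108 (p = 0.6, exact permutation).

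Arbuscule markers outside the 5 genes were also lower in Mtphr2, but not evenly. For number 3 they ran from 1.11-fold lower for AMT2;3 to 9.01-fold lower for MYB1, against 1.93-fold for STR2 to 6.21-fold for WRI5a. All 10 markers, among them the phosphate transporter PT4 (MTR_1g028600) and the GRAS factor RAM1 (MTR_7g027190), were 3.69-fold to 7.42-fold lower in Mtphr2 as fitted, and 0 passed edgeR's test while 8 had an unadjusted p under 0.05, against 8.41% of all tested genes on the lower side. PT4 had 403, 38.3 and 89.0 CPM in Mtphr2 replicates 1 to 3, against 1705, 819 and 404 CPM in R108 replicates 1 to 3. No marker was at 0 in any library, but AMT2;3 was low, with 0.442 ± 0.384 CPM in Mtphr2 and 2.65 ± 2.54 CPM in R108. Its log2 values are thus the least precise of the markers, and its part in the marker mean was not tested. The mean log2 CPM of the markers ran from 2.04 to 4.61 in Mtphr2 and from 4.38 to 6.94 in R108. The part of arbuscule abundance in the differences of the lipid supply genes was not tested.

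Set against the marker mean of the same library, the lipid supply genes differed less between genotypes. FatM minus the marker mean was -0.21 ± 0.315 in Mtphr2 and 0.02 ± 0.154 in R108 on the log2 CPM scale, and RAM2 minus the marker mean was 1.45 ± 0.182 in Mtphr2 and 1.77 ± 0.247 in R108. STR was at 1.13 ± 0.193 in Mtphr2 and 1.05 ± 0.0402 in R108, and WRI5a was at -0.21 ± 0.594 in Mtphr2 and 0.26 ± 0.318 in R108. STR2 alone among the 5 did not overlap between genotypes on this scale, with 0.68, 1.23 and 1.09 in Mtphr2 replicates 1 to 3 and 0.57, 0.49 and 0.57 in R108 replicates 1 to 3. Its difference of 0.46 had p = 0.1 by two-sided exact permutation over libraries and p = 0.25 by exact sign changes within pairs, each the smallest possible, and the first became 0.5 when adjusted over the 5 genes. Against PT4 alone in place of the marker mean its difference was 0.84, and the genotypes overlapped (p = 0.2, exact permutation). The trait was not particular to STR2. The marker EXO70I, itself part of the mean, also lay higher against it in every Mtphr2 library than in any R108 library. Taken number by number, EXO70I was 3.76, 10.2 and 2.13-fold lower in Mtphr2, against 4.69, 7.87 and 1.93-fold for STR2. The marker mean includes MYB1, which was 83-fold lower in Mtphr2 for number 2 and was the marker farthest in shape from the lipid supply genes. The part of MYB1 in the STR2 difference was not tested. When the marker mean entered edgeR's model as a covariate, log2 fold changes were -0.44 (SE 0.240) for FatM, -0.39 (SE 0.239) for RAM2, 0.07 (SE 0.179) for STR, 0.18 (SE 0.201) for STR2 and -0.19 (SE 0.441) for WRI5a. The markers were themselves known to be lower in these Mtphr2 libraries. Subtracting their mean, like using it as this covariate, removes any difference that the lipid supply genes share with them. Smaller differences after either step were thus largely set in advance.

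**Figure D4:**
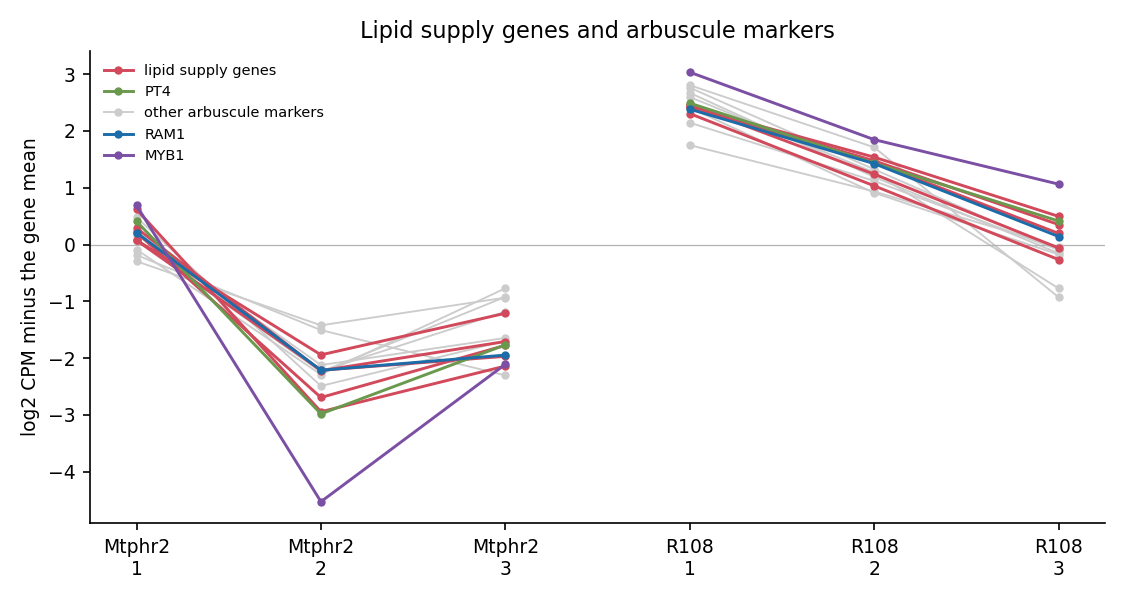
Level of each gene in each library as log2 CPM minus the mean of that gene over the 6 libraries (vertical axis), with lines that only join the points of a gene within a genotype. Red lines are the 5 lipid supply genes, coloured lines are RAM1, PT4 and MYB1, and grey lines are the other arbuscule markers; RAM1 runs with the red lines, and MYB1 lies below them in Mtphr2 replicate 2.

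FatM, RAM2 and STR had nearly the same shape over the libraries, and STR2 and WRI5a departed further from it. Averaged over the 5 genes, log2 CPM centred on the mean of each gene was 0.26, -2.40 and -1.76 in Mtphr2 replicates 1 to 3. In R108 replicates 1 to 3 it was 2.42, 1.35 and 0.14. The root mean square difference of a gene from the mean of the other 4 was 0.15 for STR, 0.18 for FatM, 0.19 for RAM2, 0.44 for WRI5a and 0.46 for STR2. Over 16124 other annotated genes with a mean of at least 5 CPM, the median difference from the mean profile of the 5 was 1.68, and 54 genes were within 0.25.

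Of the genes nearest in shape over the 6 libraries, 10 are named. A UDP-glucosyltransferase gene (MTR_4g118000), a leucine-rich repeat kinase gene (MTR_5g094380) and a 2-oxoglutarate-dependent oxygenase gene (MTR_7g062570) each differed by 0.09. A hypothetical protein gene (MTR_5g018610) and a cyclin-dependent kinase gene (MTR_8g092290) were at 0.10, and a transmembrane protein gene (MTR_2g089380) at 0.11. RAM1, known as a regulator of arbuscule branching, and a LysM domain gene (MTR_4g091010) were at 0.12, and a Kunitz-type trypsin inhibitor gene (MTR_8g461050) and an F-box gene (MTR_7g089730) at 0.13. Among other markers, the proton pump gene HA1 was at 0.20, PT4 at 0.27 and EXO70I at 0.3. Further off were PT8 at 0.48, SWEET1b at 0.5, BCP1 at 0.51, AMT2;3 at 0.52 and RAD1 at 0.66. The MYB1 gene, known for a role in arbuscule degeneration, was at 1.02.

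The families of the 5 genes behaved unevenly, and no gene of any family passed edgeR's test. Glycerol-3-phosphate acyltransferases, the family of RAM2, also serve membrane lipids, cutin and suberin. Of the 8 other tested members of 13, 0 had an unadjusted p under 0.05 on the lower side and 2 on the higher side, where 8.41% and 8.01% of all tested genes had such a p, and log2 fold changes ran from -0.44 to 0.68 with a median of 0.04. The most abundant was the GPAT4-like MTR_8g030620 with 54.0, 53.6 and 62.3 CPM in Mtphr2 replicates 1 to 3, against 50.7, 51.8 and 58.9 CPM in R108 replicates 1 to 3. The next were a pair of GPAT9-like genes, MTR_4g127910 with a log2 fold change of 0.01 and MTR_2g438210 with -0.16. DESeq2 called 2 GPAT6-like genes higher, MTR_4g415290 (log2 fold change 0.68) and MTR_7g067380 (0.62), both named after their values were seen, where it called 2.77% of tested genes higher. GPAT6 of Arabidopsis is known for cutin synthesis.

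Acyl-ACP thioesterases other than FatM free fatty acids for the rest of the cell. All 5 others were tested, with log2 fold changes of -0.34 to 0.79 and a median of -0.07. The FATB-like MTR_4g112970 had 76.0, 64.1 and 68.2 CPM in Mtphr2 replicates 1 to 3, against 72.9, 72.7 and 77.5 CPM in R108 replicates 1 to 3, and for the FATA-like MTR_7g056233 the log2 fold change was -0.34 (edgeR adjusted p = 0.241). Another FATB-like gene, MTR_7g083730, had -0.07. An unadjusted p under 0.05 was found for 1 on the lower side, against 8.41% of all tested genes, and 2 on the higher side, against 8.01%. DESeq2 called 2 higher, against 2.77% of all tested genes, the FATB-like MTR_3g099020 and the assembled locus MSTRG.5269, both named after their values were seen.

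STR and STR2 belong to the white-brown type of ABCG transporters. Among 21 other tested ABCG genes, all described as white-brown except MTR_3g437450, which is closest to the ABCG29 transporter of Arabidopsis, the median log2 fold change was 0.05, with 10 below and 11 above 0. The most abundant were the ABCG14-like MTR_5g025470 with a log2 fold change of 0.19, the ABCG25-like MTR_1g096580 with 0.17 and the ABCG3-like MTR_2g095390 with 0.14. An unadjusted p under 0.05 was found for 2 on the lower side, against 8.41% of all tested genes, and 3 on the higher side, against 8.01%. DESeq2 called 1 higher, against 2.77% of all tested genes, the ABCG23-like MTR_4g116540 (log2 fold change 0.65, adjusted p = 0.046 by DESeq2), named after its values were seen. The lowest, also named after its values were seen, was MTR_4g093845, whose closest Swiss-Prot entry is ABCG1 of petunia. It had 16.4, 1.15 and 4 CPM in Mtphr2 replicates 1 to 3, against 98.5, 35.4 and 18 CPM in R108 replicates 1 to 3 (log2 fold change -2.82, adjusted p = 0.271 by edgeR), so that Mtphr2 replicate 1 was just below R108 replicate 3. It lay 0.47 from the mean profile of the lipid supply genes.

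WRI5a had company in its own family. Of 7 other tested WRI-like factors, 4 had a fitted fold of at least 2 on the lower side, which 4.84% of all tested genes had, and 0 on the higher side, with a median log2 fold change of -1.61. The 3 most abundant were MTR_6g011490 (log2 fold change -2.74, adjusted p = 0.271), MTR_4g130270 (-1.61, adjusted p = 0.302) and MTR_7g009410 (-2.46, adjusted p = 0.342), all by edgeR. MTR_6g011490 had 19.8, 1.24 and 4.90 CPM in Mtphr2 replicates 1 to 3, against 96.4, 55.7 and 21 CPM in R108 replicates 1 to 3. DESeq2 called 1 of the 7 lower, against 2.96% of all tested genes, MTR_2g460730 (log2 fold change -2.20, adjusted p = 0.0382 by DESeq2), named after its values were seen. The gene closest to WRINKLED1 itself, MTR_8g044070, also named after its values were seen, had 11.1, 7.69 and 9.67 CPM in Mtphr2 replicates 1 to 3, against 9.88, 12.0 and 8.23 CPM in R108 replicates 1 to 3.

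**Figure D5:**
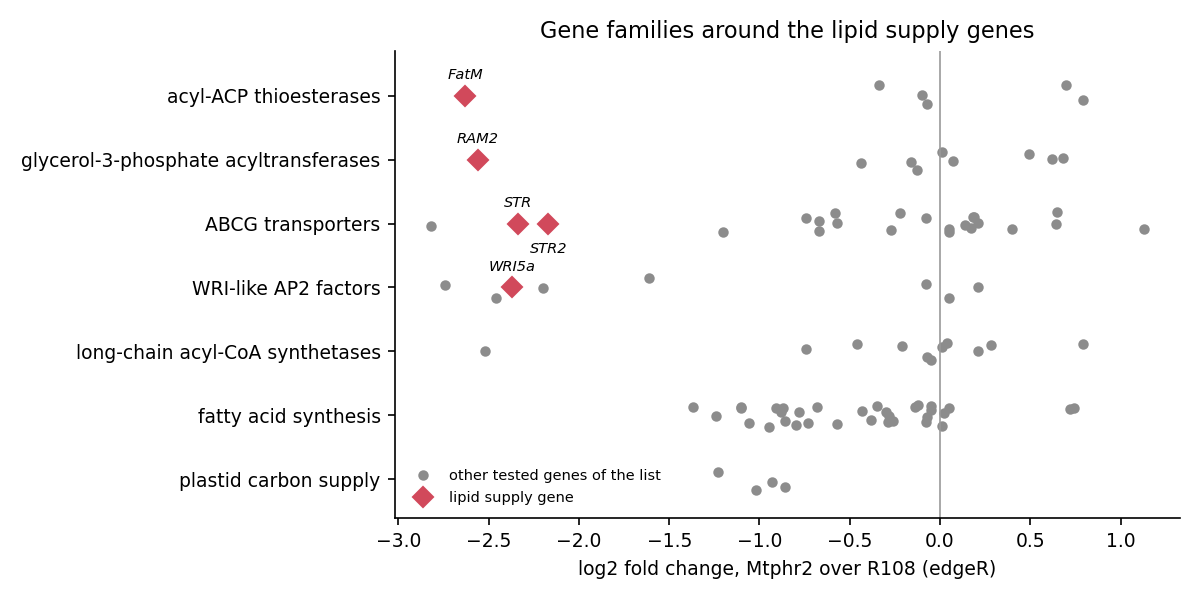
Log2 fold change, Mtphr2 over R108 by edgeR (horizontal axis), of the 5 lipid supply genes (red diamonds) and of the other tested genes of each family or pathway (grey circles, 1 per gene). FatM and RAM2 lie below all other tested members of their families, whose lowest values are -0.34 and -0.44, while WRI5a lies among 4 other WRI-like factors below -1.

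The 33 tested fatty acid synthesis genes had a median log2 fold change of -0.38, with 28 of the 33 below 0, as were 47.7% of all tested genes. This list is wider than the plastid route upstream of FatM. It includes acyl carrier protein genes closest to mitochondrial entries, with log2 fold changes of -0.38 to 0.01, which enter the median. The 4 tested genes of plastid pyruvate kinase and plastid pyruvate dehydrogenase had -1.23 to -0.86. By edgeR 0 of either set passed, with 17 and 4 at an unadjusted p under 0.05 on the lower side, against 8.41% of all tested genes, and DESeq2 called 10 and 3 lower, against 2.96% of all tested genes. The most abundant of the synthesis genes, the acyl carrier protein gene MTR_2g020360, the biotin carboxylase gene MTR_8g101330 and the ketoacyl-ACP reductase gene MTR_3g085740, had log2 fold changes of -0.73, -0.91 and -1.06. For carbon supply the most abundant were the pyruvate dehydrogenase genes MTR_8g024310 and MTR_3g076630 and the pyruvate kinase gene MTR_1g099360, with -1.02, -1.23 and -0.86. These were smaller differences than those of the lipid supply genes, and the difference between the sets was not tested.

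Long-chain acyl-CoA synthetases, which activate fatty acids before acyltransferases such as RAM2 use them, had a median of -0.05 over 11 tested genes. The most abundant were the LACS4-like MTR_5g009350 (log2 fold change 0.04), the LACS9-like MTR_3g087980 (-0.74) and the LACS8-like MTR_3g082660 (-0.07). An unadjusted p under 0.05 was found for 3 on the lower side, against 8.41% of all tested genes, and 1 on the higher side, against 8.01%, and DESeq2 called 0. The lowest, MTR_8g083170, named after its values were seen, is closest to the plastid acyl-activating enzyme AAE16 of Arabidopsis. It had 17.8, 3.96 and 5.81 CPM in Mtphr2 replicates 1 to 3, against 92.8, 49.5 and 15.6 CPM in R108 replicates 1 to 3, with Mtphr2 replicate 1 above R108 replicate 3 (log2 fold change -2.52, adjusted p = 0.248 by edgeR). At 0.22 from the mean profile, it was nearer in shape to the lipid supply genes than any other member of these families.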

How the data were processed

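RNA was extracted with TRIzol and libraries were read on an Illumina NovaSeq 6000, per the labels' protocols. Reads of the R108 line and of its mutant Mtphr2 were mapped with HISAT2 to version 4.0 of the Medicago truncatula genome and assembled with StringTie, per the labels' protocols. Their versions and the read counter were not stated (not given in the sources used here), and the submitters' processing notes also name DESeq2. The deposited table holds expected counts per locus, also called estimated counts, which were rounded for the count models. The authors' columns of genotype means were not used, and locus lengths in the deposited table served for TPM.

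The default filter of edgeR (filterByExpr, at least 10 counts and a total of 15) left 22663 genes. After TMM scaling, Mtphr2 was compared with R108 by the quasi-likelihood test of edgeR, and p-values were adjusted over all tested genes (Benjamini-Hochberg). DESeq2, limma-voom, other scalings and filters, a replicate block, a marker covariate and the omission of each library were alternatives. Single ratios were compared by exact permutation of log2 CPM (prior count 2), and, as an alternative chosen after seeing the data, by exact sign changes within same-number pairs. The scripts were tested on simulated data. R 4.3.3, edgeR 4.0.16, DESeq2 1.42.0, limma 3.58.1, the data.table package in version 1.17.8 and matplotlib 3.10.9 were used.

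The 5 genes and all lists were chosen with earlier results of these data known. Family lists came from words in the gene description and closest Swiss-Prot entry. Lysophosphatidate acyltransferases and thioesterases that these words also matched were taken out of the acyltransferase and fatty acid synthesis lists, and some synthesis genes kept are closest to mitochondrial entries. Named were the 5 genes, the 3 most abundant of each list, any called gene, the markers and the 10 nearest profiles; others are marked in the text. Deviations from the genotype mean correlated across genes, between libraries sharing a number, at 0.377, 0.151 and 0.168, each above 0.1. Mtphr2 replicate 2 and R108 replicate 3 correlated at 0.187, above 0.151 and 0.168, so the correlations do not single out the numbers as pairs. Comparisons by number were run as alternatives, and the main tests did not use the numbers. Within genotypes, chi-square per degree of freedom between libraries was 25.4 to 52.6, far from the 1 of duplicate libraries.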

Additional observations from a re-analysis of the deposited data

How the results depend on the processing

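None of the 5 lipid supply genes passed under any alternative that was run. Leaving out each library in turn gave log2 fold changes of -3.75 to -1.94 for FatM, -3.82 to -1.92 for RAM2, -3.51 to -1.52 for STR, -2.92 to -1.31 for STR2 and -4.21 to -1.78 for WRI5a. With the arbuscule marker covariate the values of STR and STR2 turned to 0.07 (adjusted p = 0.910 by edgeR) and 0.18 (adjusted p = 0.781 by edgeR), by construction without what they share with the markers. Against PT4 alone in place of the marker mean, the difference of FatM turned from -0.23 to 0.16 and that of RAM2 from -0.33 to 0.06. STR moved from 0.08 to 0.47, STR2 from 0.46 to 0.84 and WRI5a from -0.47 to -0.08, and the cause was not tested. With 1 library left out, differences from the marker mean were -0.38 to -0.07 for FatM, -0.45 to -0.20 for RAM2, 0.01 to 0.19 for STR, 0.34 to 0.62 for STR2 and -0.81 to -0.28 for WRI5a, and the log2 ratio of STR to STR2 differed by -0.58 to -0.22.

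The number of genes called in all, 18, was 1298 by DESeq2, 31 by limma-voom, 34 without a filter on low counts, 9 with a mean of at least 10 CPM, 76 with the replicate block and 7 to 44 with 1 library left out, of which the lowest came without Mtphr2 replicate 2 or 3 and the highest without Mtphr2 replicate 1. The replicate block changed no call of the 5 genes (log2 fold changes -2.74, -2.80, -2.42, -2.06 and -2.90 for FatM, RAM2, STR, STR2 and WRI5a). With 3 libraries a genotype, an exact permutation test cannot go below 0.1. The lowest value, 60 counts of WRI5a in Mtphr2 replicate 2, is the least precise.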

Other observations

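Lysophosphatidate acyltransferases, which add a second fatty acid to the glycerol backbone of membrane and storage lipids, were picked up by the words used for RAM2 and were set apart. Of 6 tested genes, 5 had log2 fold changes of -0.17 to 0.09. The sixth, the LPAT3-like MTR_2g097980, named after its values were seen, had 3.31, 1.24 and 1.81 CPM in Mtphr2 replicates 1 to 3, against 8.58, 4.46 and 7.42 CPM in R108 replicates 1 to 3. The genotypes did not overlap, as in 10.6% of all tested genes in this direction, and the log2 fold change was -1.68 (adjusted p = 0.199 by edgeR, 0.0650 with the replicate block and 0.0107 by DESeq2). Unlike the lipid supply genes, it was not lowest in R108 replicate 3.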
